A study of Homo sapiens with 48 samples.

Results

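Endothelins are short vasoactive peptides. EDN1 and EDN2 encode the precursors of endothelin-1 and endothelin-2, and ECE1 encodes the endothelin-converting enzyme, a membrane metalloprotease that cuts the inactive big endothelins to the active peptides. The set is these 3 genes, taken by gene symbol from the platform annotation. Each has 1 probe on the array (ILMN_1682775, ILMN_1680814 and ILMN_1672174), so the set holds 3 of 47323 probes, and all 3 were among the 20912 probes kept after a filter on background. The genes had been chosen by measured values of these arrays, the hormone response with the siRNA against Hic-5 against that with the nonspecific one, as more strongly repressed after knockdown. Only EDN1 bears this description out. EDN2 rose with hormone in the control cells and did not rise in the first hours after knockdown. ECE1 changed little with hormone in cells without siRNA, and after knockdown it was somewhat higher, not lower.

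The cells were U2OS, a human osteosarcoma line, here a single clone with a stable copy of the wild-type rat glucocorticoid receptor alpha, which every group shares. Cells had no siRNA (NI), a nonspecific siRNA (siNS) or 1 siRNA against Hic-5 (siHic5_2), and each state was treated with dexamethasone, a synthetic glucocorticoid, for 0, 2, 4 or 24 h. There were 4 Illumina HT-12 v4 arrays in each of 12 groups, 48 in all on 6 slides. All wells were harvested together and the hormone therefore went on at different days of culture. With 1 siRNA an effect of Hic-5 loss and any other effect of that siRNA cannot be told apart. Hic-5, the product of TGFB1I1, sits at focal adhesions and also works with nuclear receptors as a coregulator, and the study asked how it shapes the response to glucocorticoid.

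Secreted endothelins act in an autocrine or paracrine way through the G protein-coupled receptors EDNRA and EDNRB, which signal through Gq to phospholipase C and calcium. Prohormone convertases such as furin first cut the precursors to big endothelins, and ECE1 or ECE2 then releases the active form. Endothelin-1 is best known as a vasoconstrictor from endothelial cells, but osteoblasts and bone-forming tumours also make and respond to it. Its production is controlled mainly at the level of transcription, through AP-1, GATA and other sites close to the gene's start, and the messenger RNA is short-lived.

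In GRCh38.p14 the RefSeq annotation puts EDN1 at chr6:12230516-12297194, EDN2 at chr1:41478775-41484683 and ECE1 at chr1:21217250-21345504. The promoter sequences of EDN1 and EDN2 are shown because these genes moved in opposite directions with hormone in control cells. Each run is the 250 bases before a transcript start, from RefSeq, written 5′ to 3′ on the gene's strand. EDN1 has 3 listed starts, and the last of them, at chr6:12290111-12290360 on the plus strand, is shown. EDN2 has 1, at chr1:41484684-41484933 on the minus strand. Capitals mark matches, on either strand, to any of 6 motifs. Sites of GATA factors were searched as AGATAA, and those of the AP-1 factors as TGAGTCA. A second form of the AP-1 site was searched as TGACTAA. For the glucocorticoid receptor only a part of its binding site was searched, as AGAACA, and the full site was not searched. The core of the hypoxia response element was searched as ACGTG, and the TATA box as TATAAA.
EDN1: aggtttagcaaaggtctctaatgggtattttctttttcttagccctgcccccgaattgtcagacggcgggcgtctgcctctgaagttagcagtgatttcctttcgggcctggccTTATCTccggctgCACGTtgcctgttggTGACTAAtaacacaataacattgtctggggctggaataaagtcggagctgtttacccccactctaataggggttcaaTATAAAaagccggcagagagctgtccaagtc
EDN2: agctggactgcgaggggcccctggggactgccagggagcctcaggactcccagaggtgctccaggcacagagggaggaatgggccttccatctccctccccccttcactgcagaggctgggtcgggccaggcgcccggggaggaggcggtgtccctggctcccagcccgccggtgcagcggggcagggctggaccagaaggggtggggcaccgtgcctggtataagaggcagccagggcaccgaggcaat
The EDN1 run holds 4 matches, none overlapping another. The GATA motif lies on the opposite strand (read here as TTATCT) 136 to 131 bases before the start, and the hypoxia core, also on the opposite strand, 123 to 119 bases before it. The second AP-1 form follows at 108 to 102 bases and the TATA box at 31 to 26 bases before the start. The EDN2 run holds 0. The runs before the EDN1 starts not shown hold 2 matches (both the hypoxia core) and 0, so the run shown is the EDN1 run with most matches. Among 35116 RefSeq promoter windows of the same length, 9.17% held the GATA motif, 4.2% the AP-1 motif and 1.62% its second form. The partial receptor site was in 12.4% of these windows, the hypoxia core in 18.5% and the TATA box in 10.7%. The EDN2 run was 70.8% G and C against 49.2% for EDN1. Of the 4 listed ECE1 starts, 1 window held a match. It was the partial receptor site, on the opposite strand 42 to 37 bases before the start. A match describes letters in these windows and no binding was measured.

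Levels are given as the log2 of the normalised intensity, and a probe was taken as above background on an array when its detection p was under 0.01. Arrays were of like quality, with median intensities of 133.6 to 193 and 31.7 to 38.3% of probes above background. TGFB1I1 differed between siHic5_2 and siNS by -3.41, -3.33, -4.04 and -3.25 on the log2 scale at 0, 2, 4 and 24 h. All 4 exact two-sided permutation tests gave p = 0.0286, the lowest value possible with 70 splits. Its probe was above background on 2 siHic5_2 arrays at 0 h and on 1 at 2 h. It was above background on 0 of them at 4 and 24 h, where these differences depend on the background correction. After 24 h of hormone TGFB1I1 itself fell by 1.06 in NI (SE 0.25, limma adjusted p = 0.000782). Of the osteoblast lineage markers RUNX2, ALPL, SPARC and COL1A1 were above background on 48 of 48 arrays, while SPP1 was above it on 39 and SP7, BGLAP, IBSP and COL1A2 on at most 2. The summed level of the 9 osteoblast markers lay higher in siHic5_2 than in siNS at every time, with 10200 to 12600 in siNS against 14800 to 21000 in siHic5_2 at 0 h and 6290 to 7550 against 9090 to 10900 at 24 h. The markers did not move as a set: the median difference of the 5 tested was 0.52, 0.20, -0.35 and -0.25 at 0, 2, 4 and 24 h. The bright COL1A1 and SPARC were higher at every time, while RUNX2 differed by -0.70 at 0 h and -1.27 at 4 h on its brighter probe. The other RUNX2 probe gave -0.01 at 4 h. Of 5 blood cell markers, PTPRC, CD3E and HBB were above background on 0 arrays, CD14 on 5 and CD68 on 48. Of 7 endothelial markers, CDH5, TIE1 and CLDN5 were above background on 0 arrays, PECAM1 on 3, KDR on 7, and TEK and VWF on 19 each. The summed level of the 7 was 269 to 395 in siNS and 229 to 285 in siHic5_2 at 0 h, and 310 to 386 and 237 to 280 at 24 h, while at 2 h (269 to 421 and 270 to 329) and 4 h (312 to 383 and 307 to 372) the states overlapped. Of 6 epithelial markers, EPCAM, KRT8 and KRT18 were above background on every array, ELF3 on 28, and CDH1 and KRT19 on 0. The part of these markers in the results on EDN1, EDN2 and ECE1 was not tested.

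In cells without siRNA, EDN1 fell with dexamethasone. At 0 h the 4 NI arrays read 8.46, 8.25, 9.19 and 8.38. After 2 h they read 7.26, 7.46, 8.28 and 8.30, after 4 h 6.70, 6.16, 7.29 and 6.78, and after 24 h 7.06, 7.47, 7.94 and 7.35. The 2 h arrays overlapped those at 0 h, while every 4 h and 24 h array lay below every 0 h array. At 4 h EDN1 stood at 27.9% of its 0 h level, a log2 difference of -1.84 (SE 0.29, n = 4 each, limma adjusted p = 1.08e-05). At 24 h it stood at 46.1%, a difference of -1.12 (SE 0.29, adjusted p = 0.00251). The 2 h difference of -0.75 (SE 0.29) did not pass the test (limma adjusted p = 0.295).

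The low point of EDN1 in NI cells came at 4 h, where 1 of the 4 arrays was no longer above background. From 2 to 4 h the level fell by 1.09 (SE 0.29, limma adjusted p = 0.0444), but the 2 groups of arrays overlapped slightly and the exact permutation p was 0.0571. That call was lost without NI replicate 3 or 4 at 2 h, or without NI replicate 1, 2 or 4 at 4 h, with differences of -1.11 to -0.90 and limma adjusted p of 0.0983 to 0.244. It was also lost under median scaling (-0.97, adjusted p = 0.248), without background correction (-0.62, 0.0739) and without the probe filter (0.0878). With the replicate number as a block it held (limma adjusted p = 0.0062). Between 4 and 24 h EDN1 was higher by 0.72 (SE 0.29), short of the threshold (limma adjusted p = 0.0637), and higher in 4 of 4 same-numbered pairs of arrays. It passed with the replicate block (limma adjusted p = 0.0195) and with slide as a fixed term (0.023). For these 2 times same-numbered arrays deviated together only weakly, with a mean correlation of 0.25 and a lowest of 0.04. The drop at 4 h ranked 70th lowest of all 20912 kept probes, and that at 24 h ranked 1089th.

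EDN2, whose peptide binds both endothelin receptors much as endothelin-1 does, went the other way in the same cells. The NI arrays read 7.24, 8.74, 8.16 and 7.55 at 0 h, 8.43, 9.51, 9.12 and 10.05 at 2 h, 9.05, 8.93, 8.79 and 9.20 at 4 h, and 9.79, 10.11, 8.87 and 9.65 at 24 h. All NI arrays at 4 and 24 h lay above all at 0 h, and the 2 h arrays overlapped those at 0 h. EDN2 was 2.56-fold higher at 2 h (log2 difference 1.36, SE 0.33, limma adjusted p = 0.0109) and 2.10-fold higher at 4 h (1.07, SE 0.33, adjusted p = 0.0363). At 24 h it was 3.22-fold higher (1.69, SE 0.33, limma adjusted p = 7.18e-05). Neither step between hormone times passed the test: 4 h against 2 h gave -0.29 (limma adjusted p = 1) and 24 h against 4 h gave 0.61 (0.179).

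The 24 h rise of EDN2 kept its call in all alternatives with a test, but the rises at 2 and 4 h did not. The 2 h call was lost without NI replicate 2 or 4 at 2 h or NI replicate 1 or 4 at 0 h, where the difference was 1.10 to 1.28 and the limma adjusted p 0.0519 to 0.103. The 4 h call was lost without NI replicate 1, 2 or 4 at 4 h or NI replicate 1 or 4 at 0 h, with differences of 0.85 to 1.09 and limma adjusted p of 0.0665 to 0.193. With slide as a term in the model the limma adjusted p was 0.0561 at 2 h and 0.145 at 4 h. The exact permutation p was 0.0571 at 2 h and 0.0286 at 4 h. On the 1 slide that carried NI arrays of 0 h and of the later time, EDN2 differed by 0.29 at 2 h and by 1.96 at 4 h, and EDN1 by -1.06 and -1.69.

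ECE1 was dim throughout and was not called at any hormone time in NI cells. Its NI arrays read 6.21, 6.99, 6.50 and 7.04 at 0 h, 6.24, 6.81, 6.51 and 6.59 at 2 h, 6.61, 7.12, 6.99 and 7.22 at 4 h, and 6.76, 7.14, 7.26 and 6.90 at 24 h. All 3 later groups overlapped the first. The differences from 0 h were -0.15, 0.30 and 0.33 (SE 0.25 each, limma adjusted p = 1, 0.726 and 0.343), with a 95% interval at 24 h of -0.17 to 0.82. A rise of up to that size could have gone unseen with 4 arrays a group.

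Of the 3 genes, the test in NI cells thus called 1 at 2 h, 2 at 4 h and 2 at 24 h. Over all kept probes the share called was 2.33% at 2 h, 6.72% at 4 h and 32.3% at 24 h, so the members' count at 24 h stands against a background in which a large share of probes moved. Between 2 and 4 h, where EDN1 was called, 1.4% of kept probes were, and between 4 and 24 h 26.3%.

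**Figure D1:**
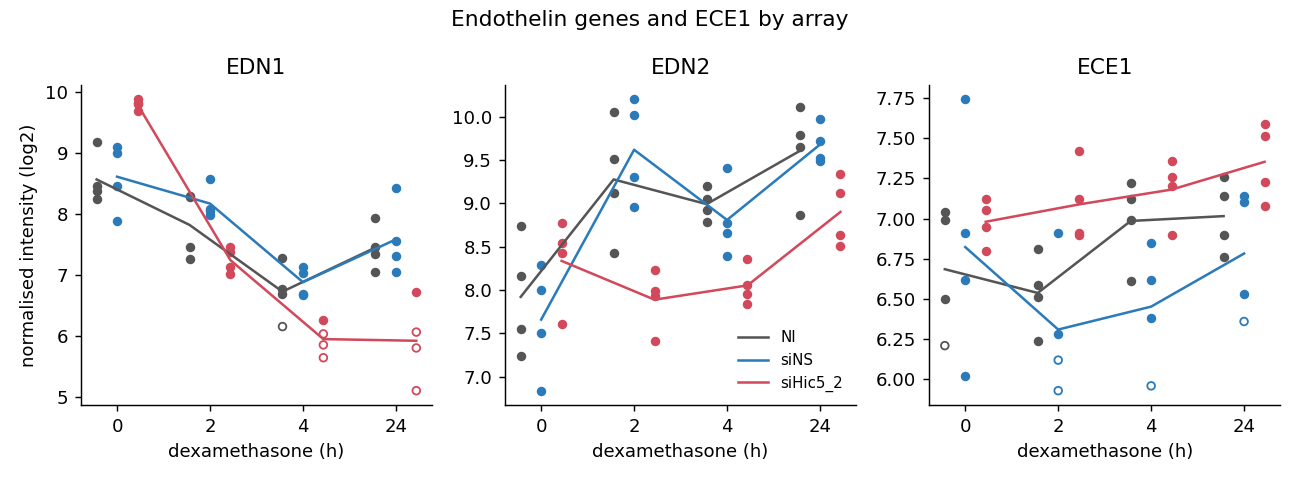
Normalised intensity (log2, vertical axes with their own ranges) of EDN1, EDN2 and ECE1 on each of 48 arrays against hours of dexamethasone (evenly spaced, not to scale), with lines through the group means of NI, siNS and siHic5_2. Open circles are arrays where the probe was not above background. EDN1 fell in all states and furthest in siHic5_2, whose means went from 9.80 to 5.93, EDN2 rose in NI and siNS, and ECE1 stayed between means of 6.31 and 7.35.

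With the nonspecific siRNA the levels of the 3 genes were close to those in NI. Over the 4 times siNS differed from NI by 0.17 for EDN1, by -0.01 for EDN2 and by -0.21 for ECE1, with 95% intervals of -0.12 to 0.47, -0.34 to 0.32 and -0.46 to 0.03. None was called (limma adjusted p = 1 each), nor was any of the 20912 probes in this comparison (0%), with 380 at an unadjusted p under 0.05. No hormone response was called different either, with 0 probes called by limma at each hormone time, while 476 (2 h), 252 (4 h) and 306 (24 h) had an unadjusted p under 0.05. Among the levels at single times the widest gap was that of ECE1 at 4 h, at -0.53 for siNS minus NI (95% interval -1.03 to -0.04, unadjusted p = 0.0362, limma adjusted p = 1). Among the responses from 0 h it was also that of ECE1 at 4 h, at -0.67 (95% interval -1.37 to 0.03, limma adjusted p = 1). These siNS arrays are also part of the comparison from which the genes were picked. Same-numbered siNS and NI arrays deviated together (mean correlation 0.43), so NI is not fully independent of that comparison. The model behind these tests did not use this pairing, and small differences could have gone unseen. With the replicate number as a block, the 3 differences over all times (0.17, -0.01 and -0.21) were again not called.

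The values with the siRNA against Hic-5 chose the genes, so they are described here without a test. EDN1 started higher in siHic5_2 cells and ended lower. At 0 h the siHic5_2 arrays read 9.80, 9.83, 9.88 and 9.69 against 9.10, 7.89, 9.00 and 8.47 in siNS, and no array overlapped. After 2 h they read 7.38, 7.13, 7.46 and 7.02 against 8.06, 7.98, 8.57 and 8.09, so the order of the states had turned. After 4 h they read 6.04, 5.65, 5.86 and 6.27 against 6.70, 6.67, 7.04 and 7.14, and after 24 h 6.72, 5.81, 6.07 and 5.11 against 7.31, 7.05, 8.43 and 7.56. At each of the 4 times the siHic5_2 and siNS arrays lay apart.

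Put as differences, EDN1 with siHic5_2 was 2.28-fold its siNS level before hormone (log2 1.19, SE 0.29) and 52.5%, 52.4% and 31.6% of it at 2, 4 and 24 h (-0.93, -0.93 and -1.66, SE 0.29 each). Its probe was above background on only 1 of 4 siHic5_2 arrays at both 4 h and 24 h, so the true levels there may be lower than those given. Without background correction the differences at 2, 4 and 24 h were -0.59, -0.41 and -0.84. From 0 h it fell in siHic5_2 by 2.55, 3.85 and 3.88 (SE 0.29 each), to 17%, 6.95% and 6.82% of the starting level. Without background correction these falls read -1.90, -2.50 and -2.52. In siNS it fell by 0.44, 1.72 and 1.03, to 73.9%, 30.3% and 49.1%. The response in siHic5_2 minus that in siNS was thus -2.12, -2.12 and -2.85 (SE 0.41 each). Part of each of these numbers is the higher starting level: at the hormone times themselves the gap to siNS was 0.93 to 1.66.

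Against NI cells, which share the siHic5_2 arrays but not the siNS arrays, the same difference of EDN1 responses was -1.81, -2.01 and -2.76 (SE 0.41 each). Between 4 and 24 h EDN1 went from a mean of 6.89 ± 0.24 to 7.59 ± 0.60 in siNS (SD, n = 4). In siHic5_2 it went from 5.96 ± 0.27 to 5.93 ± 0.67 (SD, n = 4), near the limit of detection at both times. Within slides that held both states, EDN1 was higher in siHic5_2 than siNS at 0 h on 4 of 4 slides (0.74 to 1.80) and lower at 24 h on 3 of 3 (-2.36 to -0.33).

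EDN2 with the siRNA against Hic-5 did not show the early rise of the control cells. The siNS arrays read 6.84, 8.29, 8.00 and 7.51 at 0 h and 10.02, 8.96, 9.30 and 10.20 at 2 h, while the siHic5_2 arrays read 7.61, 8.77, 8.54 and 8.43 and then 7.99, 8.23, 7.41 and 7.93. The states overlapped at 0 h and lay apart at 2 h. At 4 h siNS read 8.78, 8.66, 8.39 and 9.41 against 7.84, 7.96, 8.06 and 8.36 in siHic5_2, and at 24 h 9.72, 9.53, 9.49 and 9.98 against 9.12, 8.51, 9.34 and 8.64. At both of these times every siHic5_2 array lay below every siNS array.

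In siNS, EDN2 was 3.89-, 2.22- and 4.06-fold its 0 h level at 2, 4 and 24 h (log2 1.96, 1.15 and 2.02, SE 0.33 each). In siHic5_2 the same differences were -0.45, -0.28 and 0.56 (SE 0.33 each), with arrays that overlapped those at 0 h at all 3 times. The gap between responses was therefore -2.41, -1.43 and -1.46 (SE 0.46 each). A negative gap here means a rise that was smaller or missing, not a deeper fall: the EDN2 level in siHic5_2 at 24 h, 8.90 ± 0.39 (SD, n = 4), was above its own 0 h level of 8.34 ± 0.51. Against siNS, EDN2 was 160% at 0 h and 30.2%, 59.3% and 58.2% at 2, 4 and 24 h. No slide held siNS arrays of both 0 and 2 h, so the siNS rise at 2 h could not be read within a slide. With slide as a fixed term in the model that rise was 1.98.

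ECE1 was higher, not lower, with the siRNA against Hic-5. The siHic5_2 arrays read 6.95, 6.80, 7.12 and 7.05 at 0 h, 6.91, 7.12, 6.90 and 7.42 at 2 h, 6.90, 7.36, 7.20 and 7.26 at 4 h, and 7.59, 7.23, 7.08 and 7.51 at 24 h. The siNS arrays read 6.02, 7.74, 6.62 and 6.91, then 5.93, 6.28, 6.91 and 6.12, then 5.96, 6.38, 6.62 and 6.85, and last 6.53, 7.14, 7.10 and 6.36. Only the 4 h arrays of both states lay fully apart. The differences were 0.16, 0.78, 0.73 and 0.57 (SE 0.25 each), and those of the response from 0 h were 0.62, 0.57 and 0.41 (SE 0.35 each).

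Against NI in place of siNS, the ECE1 response differences were 0.26, -0.10 and 0.04 (SE 0.35 each), so the positive values rest in part on the siNS arrays at 2 and 4 h. In siNS, 2 of 4 arrays at 2 h and 3 of 4 at 4 and 24 h were above background for ECE1. In siHic5_2 all were.

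**Figure D2:**
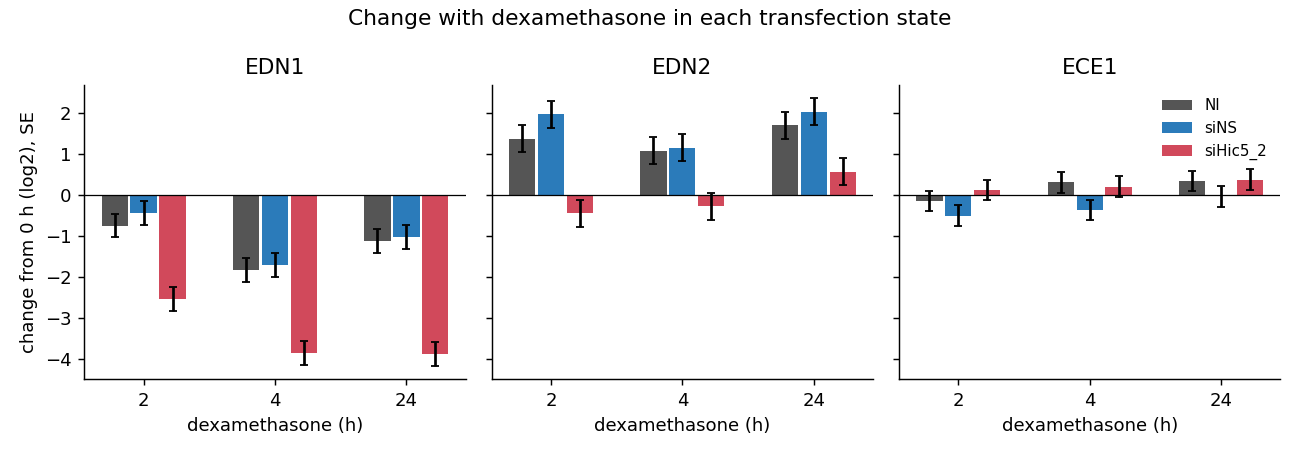
Change of EDN1, EDN2 and ECE1 from 0 h (log2 difference of group means, bars from 0, with the standard error of the limma model) at 2, 4 and 24 h of dexamethasone in NI, siNS and siHic5_2, 4 arrays a group. The siHic5_2 bars of EDN1 reach -2.55, -3.85 and -3.88, while for EDN2 they stay between -0.45 and 0.56 where the control bars lie between 1.07 and 2.02.

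Over the 12 groups EDN1 had the widest span, 3.88 on the log2 scale from siHic5_2 at 0 h to siHic5_2 at 24 h, against 2.02 for EDN2 and 1.04 for ECE1. Ordered by mean, EDN1 ran from siHic5_2 at 0 h through siNS and NI at 0 h, siNS and NI at 2 h, siNS and NI at 24 h, siHic5_2 at 2 h, siNS and NI at 4 h, to siHic5_2 at 4 h and 24 h. Of its 11 gaps between neighbours, 3 exceeded the larger SD of the pair: below siHic5_2 at 0 h, between siHic5_2 at 2 h and siNS at 4 h, and between NI and siHic5_2 at 4 h. No gap did so for EDN2 or ECE1. Across the 12 group means the correlation was -0.15 for EDN1 with EDN2, -0.42 for EDN1 with ECE1 and -0.32 for EDN2 with ECE1. Between arrays of a group, deviations correlated at -0.01, -0.11 and 0.22 (48 arrays). The points share arrays and slides, and these values are descriptions.

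The remaining ligand and the receptors were looked at whatever they did. EDN3, the third endothelin, known for its part in neural crest development, was not above background on any array at 0 or 2 h by either of its 2 probes. On the brighter probe, above background on 15 arrays, NI arrays averaged 4.68 ± 0.07 at 0 h and 8.87 ± 0.39 at 24 h (SD, n = 4), siNS arrays 4.68 ± 0.04 and 8.74 ± 0.21, and siHic5_2 arrays 4.86 ± 0.14 and 9.16 ± 0.86. At 24 h EDN3 was thus at least 5.99-fold its 0 h level in NI, 6.18-fold in siNS and 7.77-fold in siHic5_2. These are bounds, the 24 h mean over the lowest signal above background at 0 h. The second EDN3 probe gave at least 4.03-, 4.11- and 5.13-fold. EDN3 passed the filter on the second probe through its 12 arrays at 24 h alone and on the brighter one through these and 3 at 4 h, so a difference was built in and no test is given for it.

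At 4 h EDN3 was above background on 2 NI arrays, 1 siNS array and 0 siHic5_2 arrays on the brighter probe. The fitted 4 h against 0 h difference in NI was 1.24 (SE 0.31) on that probe and 0.64 on the other. The filter passed the brighter probe partly through these 4 h arrays, so this difference too was built in and no test is given. Its bound was under 1, so no fold is given. The fitted gaps between the EDN3 responses of siHic5_2 and siNS were -0.14, -0.62 and 0.23 at 2, 4 and 24 h. With 0 arrays of either state above background at 0 and 2 h, and 1 siNS array at 4 h, the early gaps compare background signal. No test is given for these gaps either. By 24 h of hormone the cells thus had more EDN3 and EDN2 signal and less EDN1 signal than at 0 h in NI. Levels of different probes are not comparable with each other, so these data give no share of each ligand. The receptor EDNRB had 4 probes, of which 3 were above background on 0 arrays and 1 on 1 array, and it was not tested. EDNRA had no probe with its symbol in the annotation used and was not analysed here.

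**Figure D3:**
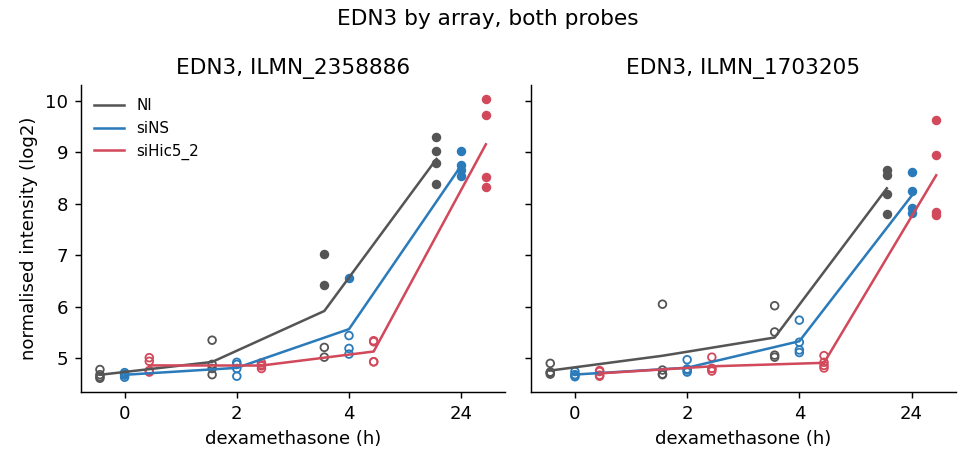
Normalised intensity (log2) of EDN3 on each of 48 arrays for its 2 probes, against hours of dexamethasone (evenly spaced, not to scale), with lines through the means of NI, siNS and siHic5_2. Filled circles are arrays above background: all 12 arrays at 24 h on both probes, and 3 arrays at 4 h on the brighter probe.

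Of 11 other genes of endothelin processing and clearance, 5 had a probe above background often enough to test, ECE2, FURIN, PCSK5, PCSK7 and CTSA. The convertase PCSK5 rose with hormone in NI cells, from a mean of 9.69 at 0 h to 10.93 at 4 h and 11.54 at 24 h (differences of 1.24 and 1.85, SE 0.20 each, limma adjusted p = 1.15e-05 and 4.28e-10). CTSA, a lysosomal carboxypeptidase that can degrade endothelin-1, was the only other called gene of the 5 with hormone, higher by 0.62 at 24 h. The counts called higher were 0, 1 and 2 of 5 at 2, 4 and 24 h, none was called lower, and the medians of the 5 were -0.02, 0.03 and 0.24 against -0.01, -0.01 and -0.02 over all kept probes. The same tests called 2.33%, 6.72% and 32.3% of all kept probes, so the 24 h count is near the background. FURIN, the best known endothelin convertase, was not called (-0.14, -0.51 and -0.17).

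With the siRNA against Hic-5, ECE2, the second converting enzyme, was higher than in siNS by 0.62, 0.85, 0.82 and 0.95 at 0, 2, 4 and 24 h and was called at all 4 times (limma adjusted p = 0.0374, 0.00382, 0.00428 and 0.0011). PCSK5 fell by 0.87 and 0.91 at 0 and 2 h relative to siNS, and the count of the 5 called higher and lower was 2 and 1 at 0 h, 1 and 1 at 2 h, 2 and 0 at 4 h, and 1 and 0 at 24 h. In this comparison 20.8%, 20.6%, 26% and 24.3% of all kept probes were called at 0, 2, 4 and 24 h. No gene of the 5 was called for a different response to hormone. For that comparison limma called 0.11%, 0.383% and 2.81% of kept probes at 2, 4 and 24 h.

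Of 23 genes of factors known at the EDN1 promoter, 19 could be tested. In NI cells 1, 1 and 2 of them rose with hormone at 2, 4 and 24 h and 4, 6 and 7 fell, with medians of -0.21, -0.25 and -0.14, in tests that called 2.33%, 6.72% and 32.3% of all kept probes. The AP-1 subunit FOSL1 fell by 1.19 at 2 h and by 1.77 at 4 h (SE 0.34 each, limma adjusted p = 0.0495 and 0.000246), and at 24 h it was not above background on any NI array, at least 3.83-fold lower. JUNB, another AP-1 subunit and an early-response gene, was above background on 4 NI arrays at 0 h, 1 at 2 h and 0 at 4 and 24 h, at least 2.44-fold lower at both later times. JUNB passed the filter through 19 arrays, with 4 in each state at 0 h and at most 1 in any later group. A difference from 0 h was thus in part built in, and JUNB is 1 of the genes counted as fallen. The other AP-1 genes were mixed, since JUN, JUND and FOSL2 differed by -1.25, -0.52 and -1.21 at 24 h, all called, and FOS was not called.

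FOXO1, a forkhead factor, rose by 1.08, 1.34 and 2.65 in NI (SE 0.26 each, limma adjusted p = 0.00948, 0.000243 and 4.27e-11). NFKB1, a subunit of NF-kappa-B, fell by 1.42 at 24 h (SE 0.19, adjusted p = 7.04e-08). NR3C1, the gene of the cells' own human receptor, fell by 1.16 at 4 h (SE 0.24, limma adjusted p = 0.000543), with 4 NI arrays above background at 0 h and 1 at 4 h. How far its probe reads the rat receptor was not tested.

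With the siRNA against Hic-5, FOSL1 was higher and FOXO1 lower than in siNS. FOSL1 was higher by 1.02 at 0 h and 1.26 at 4 h (SE 0.34 each, limma adjusted p = 0.0272 and 0.00498). At 24 h it was at least 3.29-fold higher, since no siNS array was above background there while siHic5_2 averaged 7.94. The FOXO1 difference was -1.17 at 4 h and -1.25 at 24 h (SE 0.26 each, limma adjusted p = 0.000684 and 0.000315). Of the 19 genes 1, 2, 2 and 3 were called higher and 4, 2, 4 and 3 lower at 0, 2, 4 and 24 h, with medians between -0.12 and 0.13. Over all kept probes 20.8%, 20.6%, 26% and 24.3% were called in either direction, so these counts are near the background. KLF4, 1 of those called lower at 0 h, was above background on 9 arrays in all. At 0 h these were 3 siNS and 0 siHic5_2 arrays, so its difference was in part built in. For a different response to hormone, limma called 0 of the 19 at each time, against 0.11%, 0.383% and 2.81% of all kept probes.

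**Figure D4:**
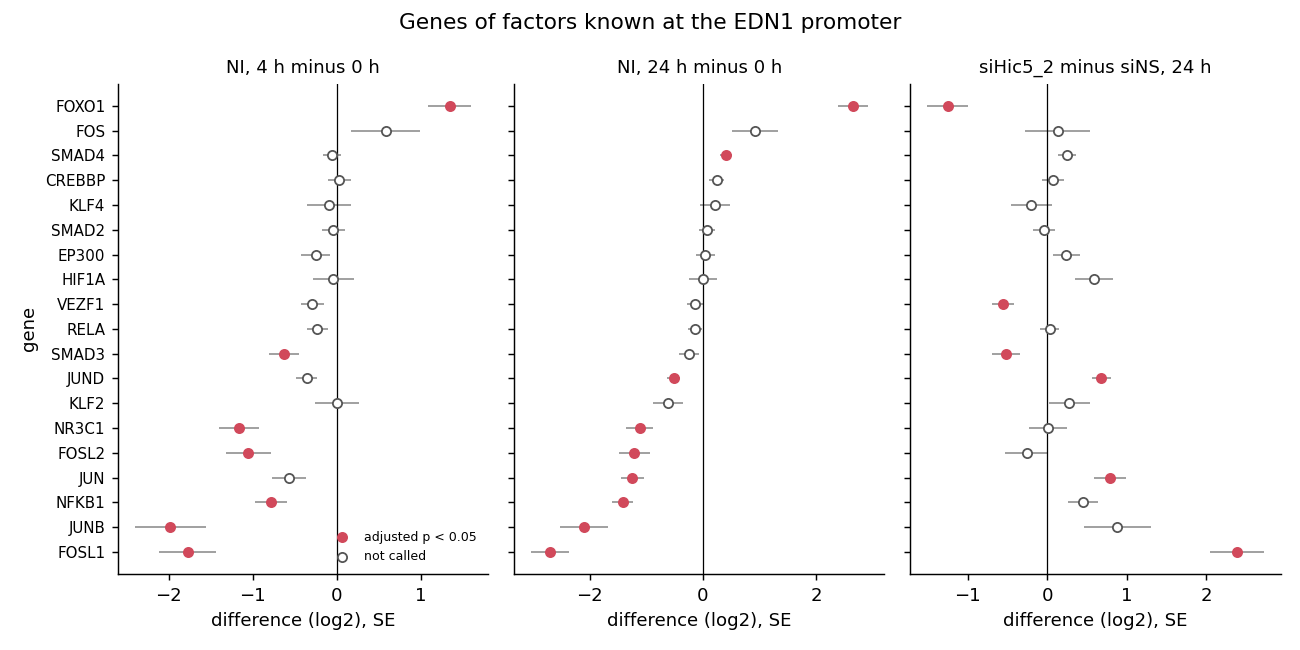
Difference (log2, points, with the standard error of the limma model as bars) for 19 genes of factors known at the EDN1 promoter, in NI at 4 h and 24 h against 0 h and in siHic5_2 against siNS at 24 h. Filled points passed the limma test at an adjusted p under 0.05. FOSL1 lies at -2.70 with 24 h of hormone in NI and at 2.38 with siHic5_2, both against a group below background, and FOXO1 at 2.65 and -1.25.

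Of 27 genes of endothelin receptor signalling, 22 could be tested. RGS2, a brake on Gq signalling, rose in NI by 2.83, 2.61 and 1.86 at 2, 4 and 24 h (SE 0.25 each, limma adjusted p = 2.93e-11, 1.11e-10 and 8.54e-08). RGS4, of the same family, was not above background on any NI array after hormone, at least 1.81-, 1.77- and 1.76-fold lower. RGS4 passed the filter mainly through its 0 h arrays, 9 of 11 above background, so a difference from 0 h was built in. By 24 h the phospholipase PLCB1 stood at -1.16 from 0 h (limma adjusted p = 0.00561) and the calcium channel ITPR2, not above background at 0 h, was at least 1.3-fold higher. ITPR2 passed the filter through 11 arrays, all at 24 h, so that difference too was built in. Both genes are part of the counts that follow. In NI 1, 1 and 4 of the 22 rose and 1, 1 and 5 fell, with medians of -0.02, 0.01 and -0.08, against 2.33%, 6.72% and 32.3% of all kept probes called.

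Between siHic5_2 and siNS, the counts of these 22 called higher were 3, 3, 5 and 7 by time and those called lower 3, 3, 4 and 3, with medians of 0.09, 0.14, 0.11 and 0.15. Over all kept probes 20.8%, 20.6%, 26% and 24.3% were called in either direction. ITPR3, an intracellular calcium channel, differed by -1.86, -1.66, -1.37 and -1.32 (SE 0.20 each, limma adjusted p = 8.52e-09, 1.13e-07, 2.54e-06 and 3.65e-06). The arrestin gene ARRB1 was higher by 1.36, 1.61, 1.96 and 2.81 (SE 0.25 each) on its brightest probe, but its 3 probes disagreed, the lowest giving 0.28, 0.08, 0.31 and 0.99. RGS2 was higher by 1.38 at 0 h and 1.12 at 24 h. PLCB2 was higher by 1.37 at 0 h and 1.17 at 4 h, and PLCB1 differed by -1.05 at 2 h and -1.19 at 4 h, with 3 and 2 siHic5_2 arrays above background.

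Of 19 other vasoactive peptides and mediators, 8 could be tested. Between siHic5_2 and siNS, the counts called higher were 2, 2, 3 and 2 by time and 0 were called lower, with medians of 0.44, 0.20, 0.47 and 0.33 beside 0 to 0.01 over all kept probes. With 20.8%, 20.6%, 26% and 24.3% of all kept probes called in either direction, these counts are near the background. ADM, the precursor of the vasodilator adrenomedullin, was higher by 1.26 at 4 h and 1.75 at 24 h (SE 0.24 each, limma adjusted p = 9.59e-05 and 3.29e-07). VIP, another vasodilator, was above background on 4 siHic5_2 arrays and 0 siNS arrays at 0, 2 and 4 h, at least 2.67-, 2.55- and 2.16-fold higher. VIP passed the filter through these 12 arrays and 2 NI arrays, so a difference was built in, and it is 1 of the genes counted as higher at those times. PTGS1, a prostaglandin synthase, was higher by 1.41 at 4 h and 1.33 at 24 h on its brighter probe, above background on 2 siNS arrays at 4 h and 1 at 24 h, while the other probe gave 0.28 and 0.02. With hormone in NI, 0, 0 and 1 rose and 0, 0 and 3 fell, with medians of -0.10, -0.11 and -0.44, ADM being the gene that rose at 24 h (0.94). These tests called 2.33%, 6.72% and 32.3% of all kept probes at 2, 4 and 24 h. NPPB, 1 of the 3 that fell, passed the filter through 5 arrays, mostly at 0 h, so its fall was in part built in.

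Among 11885 other genes, those whose 12 group means were most like EDN1 were CCDC9B (Pearson r = 0.935), KCNJ8 (0.891), NUAK1 (0.877), KLHL30 (0.877) and KBTBD4 (0.872). CCDC9B ran from 11.71 in siHic5_2 at 0 h to 10.41 at 24 h, a smaller span than that of EDN1, and unlike EDN1 it did not start higher with siHic5_2, at 11.81 in siNS. For ECE1 they were SLC43A1 (0.918), TMED2 (0.906), LAP3 (0.905), ZDHHC5 (0.903) and VPS33A (0.903). The 12 points share arrays and slides, and the list was picked as the highest of many, so these values are descriptions only.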

How the data were processed

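Expression was measured on 48 arrays; groups and replicate numbers came from the labels. Nothing there says whether replicates are separate cultures, and p-values therefore reflect only the spread among these arrays, which may be technical. The genes and lists were chosen with earlier results of these data known. The deposited raw values are, per the file headers, bead intensities before normalization. Each comes with a detection p-value from the same deposited table, which lists 47323 probes and 883 control rows. No column lacked a sample. The authors also deposited processed log2 values, which are not centred by gene (array medians 5.422 to 5.425, in rank order with each array's own intensities). The submitters' processing notes name R 2.15.3 and limma 3.14.4. How the authors normalized is not stated in those notes or in the labels.

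The p columns are misnamed: 0 of 48 intensity columns matched their own p column and 32 matched another's. They were recomputed from 770 negative controls, which were inferred among the control rows from the steps of the deposited p along intensity. The largest gap to the matched deposited values was 0.0013, but those same values had served to pick the controls.

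The main values come from neqc (limma 3.58.1, R 4.3.3), that is normexp with an offset of 16, quantile normalization and log2. Probes with a detection p under 0.01 on at least 4 arrays were kept (20912). A single limma model of 12 group means (36 residual degrees of freedom) gave 33 contrasts, adjusted by Benjamini-Hochberg over all kept probes, and a call needs an adjusted p under 0.05. The median standard error was 0.221 for a difference of groups and 0.312 for a difference of responses, and the number of arrays limits the precision. A gene not above background on any array of a group gets a bound: the mean of the brighter group over a floor, which on each array of the dim group is the dimmest detected signal or, if larger, the probe's reading. The model was tested on simulated data. Gene symbols came from the platform annotation (30113 probes with 1 symbol, 8 with several, 17202 unnamed here), and promoter sequences from RefSeq, read with pandas 2.3.3.

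Named genes are the 3 members, the receptors, TGFB1I1, list genes called with a log2 difference of at least 1 (at most 4 a list and comparison), and the 5 genes most like EDN1 and ECE1. Other list genes were named after their values were seen. Each list gene is represented by its brightest kept probe. Same-numbered NI arrays deviated together: each correlation was at least 0.21 between 0 h and a later time and at least 0.42 between 2 h and 4 h. It was weaker for 24 h with 4 h (mean 0.25, lowest 0.04) and with 2 h (mean 0.24, lowest 0.03). The numbers thus pair the NI arrays, more loosely at 24 h. Same-numbered siNS and NI arrays of the same time also deviated together (mean 0.43, lowest -0.01). The main model uses none of this pairing. The numbers do not pair siHic5_2 with siNS (mean -0.03). No 2 arrays held identical values. Alternatives covered the background correction, scaling, probe filter, 1 probe per gene, the authors' values, slide, replicate block and leaving out each array.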

Additional observations from a re-analysis of the deposited data

Results flagged for a closer look

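For no member did an array stand far from the others of its group. In the lists, 5 genes with a log2 difference of at least 1 passed the limma test for the 24 h response, siHic5_2 against siNS. ITPR1, a calcium channel, also passed at 0.97 (SE 0.25, limma adjusted p = 0.0168). The test called 2.81% of all kept probes. The 5 came from lists with 22 (receptor signalling), 8 (vasoactive), 3 (endothelial) and 4 (epithelial) genes tested, and no gene of the other lists was called. They include VIP and KDR, whose differences were built in, as given below. ARRB1, an arrestin, differed by 1.46 (SE 0.35, adjusted p = 0.0106), being above background on all arrays, and its 3 probes gave 0.71 to 1.46. PLCB2, a phospholipase C of the Gq pathway, differed by -1.29 (SE 0.33, limma adjusted p = 0.0192), with 1 of 4 siHic5_2 arrays and 2 of 4 siNS arrays above background at 24 h. The vasodilator peptide gene VIP differed by -2.23 and the endothelial receptor gene KDR by -2.07. The epithelial factor gene ELF3 differed by 1.53 (limma adjusted p = 0.00949). It was above background on 4 siNS arrays and 1 siHic5_2 array at 0 h, and on 0 and 1 at 24 h. Its siHic5_2 level differed from siNS by -1.55 at 0 h and by -0.02 at 24 h, where both were near background. Of the 4 groups in this comparison, 3 were not above background on any array for VIP and KDR, and 1 for ELF3, so these 3 sizes are fitted values that depend on the background correction. KDR was above background on 3 NI and 4 siNS arrays at 24 h and on 0 other arrays, and VIP on 12 siHic5_2 arrays at 0, 2 and 4 h and 2 NI arrays. Both passed the filter through groups where they are high, so their differences were built in and no p is given.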

How the results depend on the processing

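No called difference of a member changed sign under any alternative run. For the tests in NI cells against 0 h, EDN1 at 4 and 24 h and EDN2 at 24 h kept their calls in every alternative with a test. EDN2 lost its call at 2 h with slide as a fixed term (1.34) and in the exact test (1.36), and at 4 h without the filter (1.07) and with slide (1.00). Leaving out 1 array gave EDN2 values of 1.10 to 1.64 at 2 h and 0.85 to 1.34 at 4 h. The 4 h against 2 h fall of EDN1 in NI lost its call without background correction (-0.62), with median scaling (-0.97) and without the filter or in the exact test (-1.09), and leaving out 1 array gave -1.28 to -0.90. The 24 h against 4 h difference of EDN1 passed with slide as a fixed term (0.86), stood at 1.24 within slides, and leaving out 1 array gave 0.53 to 0.91. Within slides the other NI differences were -1.56 for EDN1 at 24 h, 0.29 and 1.96 for EDN2 at 2 and 4 h, -1.13 for EDN2 between 2 and 4 h, and -0.78 and 1.01 for ECE1 at 2 and 4 h. Between siHic5_2 and siNS they were -0.41 for EDN2 at 24 h and 0.40 for ECE1 at 2 h. Within slides the changes from 0 h were -1.27 for EDN1 in siNS at 4 h, and -2.78 for EDN1 and 0.31 for ECE1 in siHic5_2 at 2 h. Without background correction differences shrank: EDN1 in siHic5_2 against siNS to -0.59, -0.41 and -0.84 at 2, 4 and 24 h, the gaps between its responses to -1.57, -1.38 and -1.81, the 2 h gap of EDN2 to -1.80, and ECE1 at 2 and 4 h to 0.36 and 0.35. The falls of EDN1 from 0 h became -1.90, -2.50 and -2.52 in siHic5_2 and -1.12 in siNS at 4 h, and the 24 h difference of EDN2 in siNS became 1.53. With the replicate block, which pairs the NI arrays of 0 h with later ones, EDN1 stood at -1.84 at 4 h (limma adjusted p = 2.95e-07). No call of a member in NI against 0 h changed. The 24 h against 4 h difference of EDN1, where the pairing was weaker, passed (0.72, limma adjusted p = 0.0195). The numbers do not pair siHic5_2 with siNS, and the block there moved the probes called for a different 4 h response from 80 to 163. Leaving out 1 array that count was 47 to 119, the lowest without siNS replicate 4 (47) or 1 (48) at 4 h. Median scaling moved calls from 4349 to 2679 at 0 h and for the response from 23, 80 and 587 to 13, 49 and 365. With 1 probe per gene the 4 h count was 3607 against 5446, fewer features being tested. Other causes were not tested. Signal close to background limits EDN1 in siHic5_2 at 4 and 24 h and ECE1.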
